A study of Mesocricetus auratus with 6 samples.

Results

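The genes described here encode the nuclear pore complex and the machinery that moves proteins and RNA through it. They were chosen by symbol among the genes of the golden hamster: nucleoporins named Nup and a number, importins named Ipo and a number, exportins named Xpo and a number, the importin alpha and beta genes named Kpna or Kpnb and a number, and Tpr, Ranbp2, Ran, Rangap1, Rcc1, Ndc1, Aaas, Rae1, Seh1l and Pom121. Of 16078 genes with a value in each library, 49 met this rule. Pom121 was not found by its symbol, and Nup210, Kpna7 and Nup62cl were not analysed here.

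The nuclear pore complex is a ring-shaped channel through the nuclear envelope, built from nucleoporins in many copies. The Y complex and the inner ring form its scaffold, nucleoporins rich in phenylalanine-glycine repeats fill the central channel, filaments extend into the cytoplasm, and a basket extends into the nucleus. Importins and exportins, together called karyopherins, carry cargo through the channel. The small GTPase Ran gives this traffic its direction, since RCC1 loads Ran with GTP inside the nucleus and RANGAP1 stimulates GTP hydrolysis outside it. Dividing cells take their pores apart in mitosis and rebuild them afterwards.

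The RNA came from BHK21, a line of fibroblast-like cells started from newborn hamster kidney, for which the labels give the age as 1 day. Of 6 libraries, 3 were made after transfection with STYK1/NOK (N1 to N3 in the labels, here STYK1 1 to 3) and 3 after transfection with the empty expression plasmid pCMV-Myc (P1 to P3, here vector 1 to 3). STYK1, also called NOK, spans the membrane and resembles tyrosine kinases in sequence, and the series asks what its transfection does to the transcriptome. RNA was harvested 48 after transfection, with no unit given, all 6 libraries come from transfected cells, and no untransfected cells were analysed here. Whether the libraries within a group stem from separate cultures is not stated, and the p-values here cover the spread between libraries alone, which may be technical.

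Values are FPKM, fragments scaled to transcript length and to the mapped total, so levels can be compared between genes per length. No total of reads is given for a library, so the absolute depth is unknown. From the steps between low FPKM values, the depth was estimated at 0.979 to 1.04 times that of STYK1 1 in the other 5 libraries. Only ratios near 1 were searched, for vector 1 those of 163 of 837 low genes. A larger difference in depth could therefore not have been found. The hamster gene Styk1 (NCBI Gene 101839917) ranged between 1.5 and 1.89 FPKM in the vector libraries, all lower than the 2.04 to 2.46 FPKM of the STYK1 libraries. It did not pass the test (limma, adjusted p = 0.470), so overexpression is not shown by these values. Which species' STYK1 sequence was transfected is not in the labels. Vimentin, fibronectin and Pdgfra were abundant, the summed level of 8 fibroblast and mesenchymal markers was 4387 to 4714 FPKM in vector and 4195 to 4518 FPKM in STYK1 libraries, and Col1a2, Col3a1 and Thy1 stayed under 1 FPKM in all 6. Most of that sum was vimentin, at 3650 to 4141 FPKM, and Col1a1 was low as well, at 0.65 to 1.02 FPKM. The 5 epithelial markers with values were under 1 FPKM in all 6 libraries. The 6 myeloid markers summed to 521 to 534 FPKM in vector and 452 to 513 FPKM in STYK1 libraries, mostly through Cd14 and Cd68. Of these markers, Ptprc, Adgre1 and Itgam were under 1 FPKM in all 6 libraries, and Csf1r was at 2.91 to 3.7 FPKM. Of 3 endothelial markers, Pecam1 and Tek were under 1 FPKM and Cdh5 was at 4.45 to 9.11 FPKM. Vector 1 stood apart: its correlation with the other libraries over 11464 genes on log2(FPKM + 1) was 0.963 to 0.976, against 0.988 to 0.993 for all other pairs. Values without it are therefore given beside the main ones.

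Most nuclear pore and transport genes had slightly higher means in STYK1 libraries, and none passed the test. Of the 49 genes, 48 reached 1 FPKM as the mean of a group and were tested. The exception, Nup210l, a relative of the pore membrane protein NUP210, was listed at 0.03 to 0.23 FPKM. Of the 48, 39 had a difference above 0 and 9 below 0, where 52.7% of all genes tested lay above 0. With the libraries scaled to equal FPKM sums 45 of the 48 lay above 0, beside 70.5% of all genes; with median centring it was 37, beside 47.0%, and with quantile normalization 38, beside 49.5%. Differences are on log2(FPKM + 1), STYK1 minus vector, and their median was 0.15 over the 48 genes against 0.01 over all 11464. They ran from -0.16 for Ipo13 to 0.41 for Xpo4.

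At an adjusted p under 0.05 there were 0 of 48 genes, as there were 0 of 11464 over the whole table (0.0%). The test was limma's moderated test with Benjamini-Hochberg adjustment over all genes, and the smallest adjusted p among the 48 was 0.469. At an unadjusted p under 0.05, 6 of the 48 were higher and 0 lower in STYK1 libraries, beside 4.95% higher and 4.88% lower of all genes. The 6 were Tpr of the nuclear basket, Ranbp2 and Nup98 of the pore, the importin alpha gene Kpna4 and the exportins Xpo1 and Xpo4. All 3 STYK1 libraries lay above all 3 vector libraries for 16 of the 48 (33.3%), beside 13.6% of all genes, and the reverse order was found for 0, beside 9.44%. Genes measured in the same libraries are not independent, so these counts are a description. The count of 6 at an unadjusted p under 0.05 was 0 without STYK1 1, 3 without STYK1 2 and 1 without STYK1 3. Shares of all genes at that p are not given for these fits. A drop of these genes cannot be told there from one over the whole table.

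Much of this pattern depended on vector 1. That library was the lowest of the 6 libraries for 29 of the 48 genes (60.4%), beside 36.5% of all genes. Without it the median difference was 0.06, 36 of 48 genes lay above 0 beside 55.6% of all genes, and 18 had all STYK1 libraries above the remaining vector libraries (the 16, which had to stay apart, and 2 more), beside 17.9%, and 0 had the reverse order, beside 11.9%. At an unadjusted p under 0.05 there were then 4 higher and 0 lower, beside 4.91% and 4.57%: Ranbp2, Xpo1, Kpna4 and Tpr. Of the 48 differences, 23 were smaller by over 1.5 times without vector 1, 16 stayed within 1.5 times, 2 were larger by over 1.5 times and 7 had the other sign. Over the genes tested, the median SD of log2(FPKM + 1) was 0.18 between the vector libraries and 0.07 between the STYK1 libraries for these genes, against 0.18 and 0.10 for all genes.

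**Figure D1:**
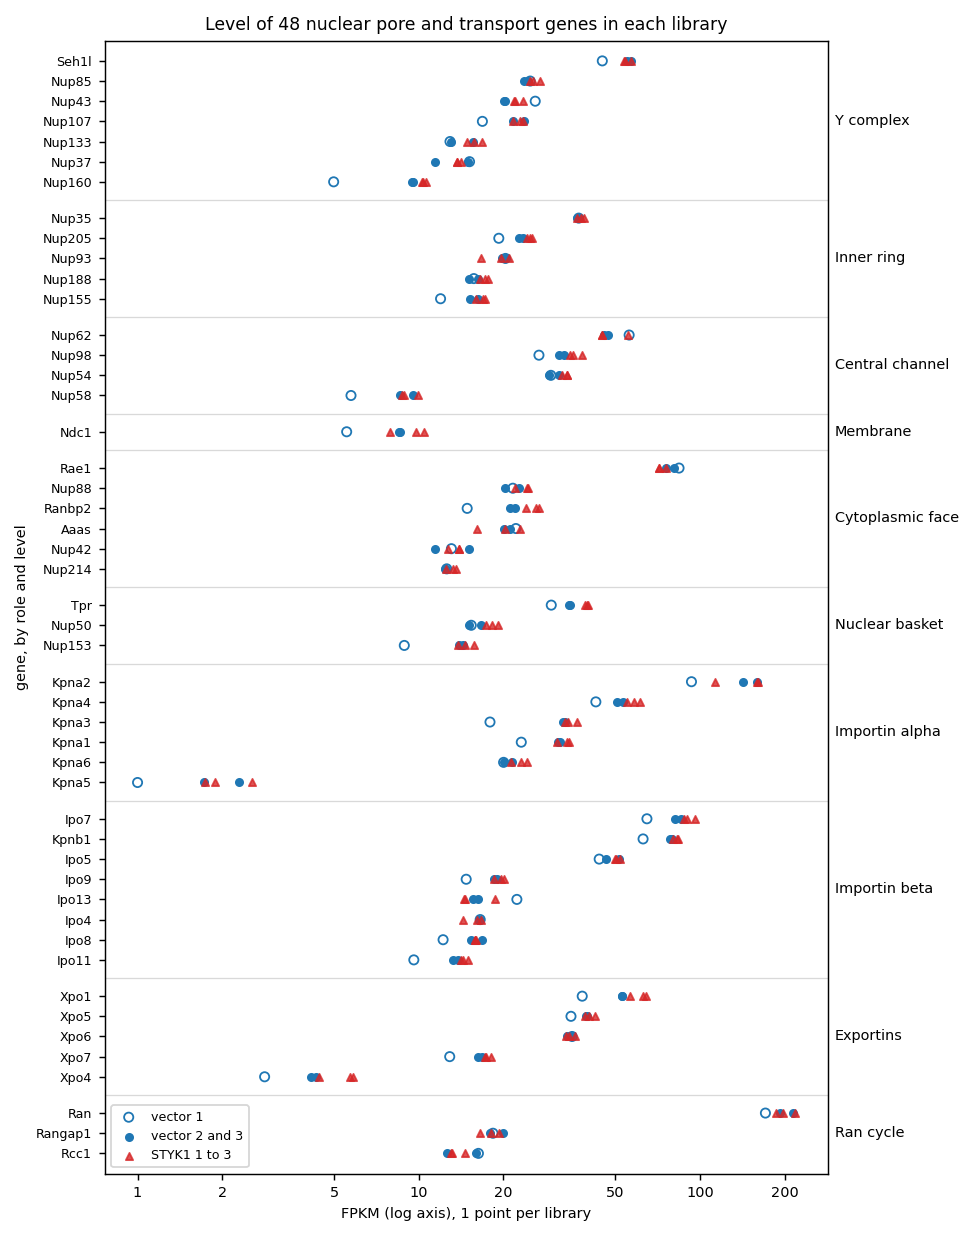
FPKM of the 48 tested genes in each library on a log axis, grouped by role; open circles are vector 1, filled circles vector 2 and 3, triangles STYK1 1 to 3. Levels run from about 1 FPKM for Kpna5 to over 200 FPKM for Ran, and vector 1 is the lowest library for 29 genes.

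The levels spanned a wide range that both groups shared. Of the 48 genes, 8 had a mean over the 6 libraries of at least 50 FPKM: Ran, Kpna2, Ipo7, Kpnb1, Rae1, Xpo1, Seh1l and Kpna4. Only Kpna5, Xpo4, Ndc1, Nup58 and Nup160 were under 10 FPKM, and the other 35 lay between. In 13 of the 48 the highest library was within 1.25 times the lowest, among them Nup35, Xpo6, Nup214, Nup85 and Rangap1. The plot of levels by role shows these values for each library.

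The Y complex, the outer scaffold ring that also helps pores form after mitosis, ran from 9.21 FPKM for Nup160 to 53.6 FPKM for Seh1l as means of 6 libraries. Its 7 genes had a median difference of 0.08, with 7 above 0 and 0 at an unadjusted p under 0.05. Nup160 measured 4.98, 9.54 and 9.49 FPKM in vector 1 to 3 against 10.6, 10.2 and 10.4 FPKM in STYK1 1 to 3. The groups did not overlap, but vector 1 was at 49.6% of the mean of the other 5 libraries. The difference was 0.39 ± 0.21 (SE; adjusted p = 0.474) and 0.12 without vector 1. Nup133, the membrane-contacting tip of the complex, measured 12.9, 15.6 and 13.0 against 14.8, 16.8 and 15.8 FPKM, and its groups overlapped (0.18 ± 0.11 (SE), adjusted p = 0.487, and 0.14 without vector 1). Seh1l, which is shared with a nutrient-sensing complex at lysosomes, measured 44.9, 54.8 and 57.0 against 53.8, 56.8 and 54.3 FPKM, with a difference of 0.08 and of -0.02 without vector 1. Nup43 and Nup37 were highest in vector 1 and so ran against Nup160, with differences of 0.03 and 0.01 that were 0.15 and 0.08 without that library. Nup107 (0.13, and -0.0018 without vector 1) and Nup85 (0.08 and 0.09) completed the ring. Without vector 1 the median of the 7 was 0.09, with 5 above 0.

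The inner ring, which lines the wall of the channel, was more even. Its 5 genes had mean levels from 15.6 FPKM for Nup155 to 37.3 FPKM for Nup35 and a median difference of 0.12 (0.08 without vector 1), with 4 above 0. Nup205 measured 19.3, 23.5 and 22.8 FPKM in vector against 24.9, 25.2 and 24.3 FPKM in STYK1 libraries. Its groups did not overlap, with a difference of 0.18 ± 0.10 (SE; adjusted p = 0.474) and of 0.10 without vector 1. Nup188, its structural relative, also did not overlap, at 15.0 to 16.2 against 16.5 to 17.7 FPKM, and its difference of 0.12 was the same without vector 1. Nup155 measured 11.95, 15.2 and 16.3 against 15.9, 17.3 and 16.9 FPKM and overlapped (0.20, and 0.08 without vector 1). Nup35, which binds membrane, was level across all libraries, at 37.0, 36.4 and 37.3 against 36.6, 37.6 and 38.7 FPKM, with a difference of 0.03 with and without vector 1 and a 95% interval of -0.15 to 0.21. Nup93, the linker of the ring, was at -0.09 with the lowest value, 16.7 FPKM, in STYK1 2.

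In the central channel 3 of 4 genes were above 0, with a median of 0.18, and 4 of 4 without vector 1, with a median of 0.09. Nup98 (NCBI Gene 101823648), whose transcript encodes both a repeat-bearing nucleoporin and a scaffold protein of the Y complex, measured 26.7, 32.8 and 31.4 FPKM in vector against 34.4, 37.9 and 35.3 FPKM in STYK1 libraries. All STYK1 libraries were above all vector libraries, with a difference of 0.24 ± 0.10 (SE; unadjusted p = 0.0470, adjusted p = 0.469), and of 0.15 without vector 1. NUP62, NUP54 and NUP58 form a trimer in the channel, and their transcripts had unequal levels. Nup62 was highest in vector 1 and STYK1 2, at 56.0, 47.2 and 45.5 against 44.7, 55.5 and 44.9 FPKM, and its groups overlapped (-0.04, and 0.05 without vector 1). Nup54 measured 29.5, 31.5 and 29.0 against 33.8, 33.6 and 32.3 FPKM, without overlap (0.14, and 0.13 without vector 1). Nup58 was much lower, at 5.74, 8.58 and 9.55 against 9.95, 8.74 and 8.86 FPKM, and its difference of 0.21 was 0.02 without vector 1. Of the membrane group, Ndc1, a transmembrane anchor of the pore, had values. It measured 5.54, 8.54 and 8.47 against 10.4, 7.89 and 9.81 FPKM, with STYK1 2 below vector 2 and 3 (0.30 ± 0.18 (SE), adjusted p = 0.485, and 0.12 without vector 1).

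The cytoplasmic face held one of the highest differences of the 48 genes beside several near 0. Ranbp2 (NCBI Gene 101826176) encodes the giant filament protein that binds Ran and anchors SUMO-modified RANGAP1. It measured 14.9, 22.1 and 21.1 FPKM in vector 1 to 3 against 26.7, 26.1 and 24.1 FPKM in STYK1 1 to 3. Its groups did not overlap, and the lowest STYK1 library was 1.09 times the highest vector library. The means were 19.3 ± 3.91 and 25.6 ± 1.40 FPKM (SD, n = 3 each), 1.33-fold apart. The difference on log2(FPKM + 1) came to 0.41 ± 0.15 (SE; 95% interval 0.07 to 0.75; limma, unadjusted p = 0.0246, adjusted p = 0.469). Without vector 1 it was 0.24 (unadjusted p = 0.0147). Rae1, an mRNA export factor that binds NUP98, was the most abundant gene of this face and lay the other way, at 84.2, 75.6 and 80.8 against 71.5, 75.6 and 71.5 FPKM. Vector 2 and STYK1 2 lay close together, so the groups overlapped (-0.14 ± 0.08 (SE), adjusted p = 0.481, and -0.10 without vector 1). Nup214 (0.06), Nup42 (0.04), Nup88 (0.13) and Aaas (-0.10), the gene mutated in triple A syndrome, had overlapping groups, and the median of the 6 genes was 0.05 with and without vector 1.

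The nuclear basket genes were above 0 in 3 of 3, with a median of 0.25 and of 0.19 without vector 1. Tpr (NCBI Gene 101825058), the large coiled-coil protein that builds the basket, had the smallest p of the 48 genes. It measured 29.6, 34.2 and 34.4 FPKM in vector against 38.9, 39.5 and 39.9 FPKM in STYK1 libraries. The lowest STYK1 library was 1.13 times the highest vector library, the widest gap among the 16 genes without overlap. The means were 32.7 ± 2.73 and 39.4 ± 0.509 FPKM (SD, n = 3 each), 1.20-fold apart. On log2(FPKM + 1) they differed by 0.26 ± 0.09 (SE; 95% interval 0.06 to 0.47; limma, unadjusted p = 0.0192, adjusted p = 0.469), and 0.19 without vector 1 (unadjusted p = 0.0119). By p, Tpr ranked 308 of 11464 genes. Nup50, a basket protein that helps release imported cargo, measured 15.4, 15.0 and 16.6 against 18.2, 17.3 and 19.1 FPKM. Its groups did not overlap, and its difference of 0.20 ± 0.09 (SE; adjusted p = 0.469) was 0.19 without vector 1. Nup153 measured 8.88, 13.9 and 14.4 against 14.6, 15.7 and 13.8 FPKM, where STYK1 3 was below vector 2 and 3, and its difference of 0.25 was 0.05 without vector 1.

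**Figure D2:**
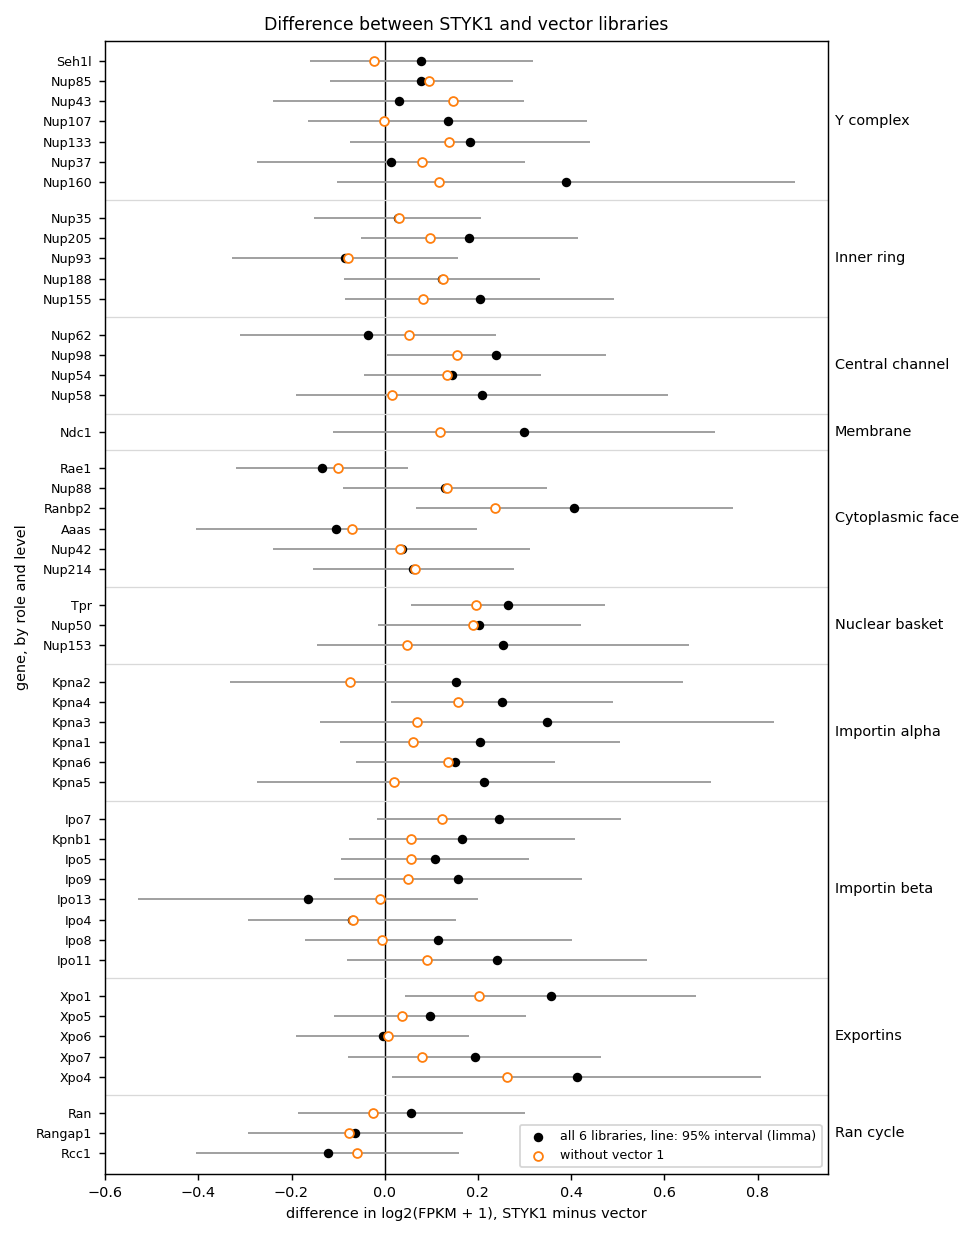
Difference in log2(FPKM + 1) between STYK1 and vector libraries for the 48 tested genes by role, with 95% intervals from limma (black, 6 libraries) and the value without vector 1 (open orange circles). The interval excludes 0 before adjustment for 6 genes, and no gene passed after adjustment.

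Importin alpha proteins are the adaptors that recognise classical nuclear localization signals and hand cargo to importin beta. All 6 genes with values had differences above 0, with a median of 0.21, and vector 1 was the lowest library for each of them. Without vector 1 the median was 0.06, with 5 of 6 above 0. Kpna2, the main importin alpha transcript here, measured 93.2, 142 and 159 FPKM in vector against 159, 113 and 161 FPKM in STYK1 libraries. Its low libraries were vector 1 and STYK1 2, the groups overlapped, and the difference was 0.15 ± 0.21 (SE; adjusted p = 0.730), or -0.07 without vector 1. Kpna4 (NCBI Gene 101843446) measured 42.6, 53.2 and 50.7 against 61.3, 58.1 and 54.8 FPKM without overlap. Its difference was 0.25 ± 0.10 (SE; unadjusted p = 0.0414, adjusted p = 0.469), and 0.16 without vector 1 (unadjusted p = 0.0488). Kpna3, the closest relative of Kpna4, measured 17.9, 32.7 and 33.1 against 36.4, 33.2 and 33.9 FPKM. There the groups were apart by a ratio of only 1.004, and the difference of 0.35 ± 0.21 (SE; adjusted p = 0.487) was 0.07 without vector 1. Kpna1 (0.20, and 0.06 without vector 1), Kpna6 (0.15, and 0.13) and the low Kpna5 (0.21, and 0.02, at 1.00 to 2.55 FPKM) had overlapping groups. The counting of reads that such close relatives share is not stated, and the split between them is uncertain.

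The importin beta family carries cargo itself or with an adaptor. Its 8 genes had a median difference of 0.14, with 6 above 0, and a median of 0.05 without vector 1, with 5 above 0. Ipo7, a carrier of ribosomal proteins and histones, was the most abundant, at 64.7, 85.7 and 81.7 FPKM in vector against 95.7, 90.1 and 88.0 FPKM in STYK1 libraries. The groups did not overlap, and the difference was 0.24 ± 0.11 (SE; unadjusted p = 0.0635, adjusted p = 0.469) and 0.12 without vector 1. Kpnb1, importin beta itself, measured 62.7, 78.4 and 79.6 against 83.7, 80.0 and 83.0 FPKM, groups apart by a ratio of 1.005 (0.17, and 0.06 without vector 1). Ipo11, which imports ubiquitin-conjugating enzymes, measured 9.60, 13.8 and 13.3 against 14.9, 14.1 and 14.4 FPKM (0.24 ± 0.14 (SE), adjusted p = 0.477, and 0.09 without vector 1). Ipo13, which also works as an exporter, had its highest values in vector 1 and STYK1 2, at 22.3, 16.2 and 15.6 against 14.4, 18.6 and 14.6 FPKM, and its difference of -0.16 was -0.0098 without vector 1. Ipo5 (0.11, and 0.06 without vector 1), Ipo8 (0.11, and -0.0065), Ipo9 (0.16, and 0.05) and Ipo4 (-0.07 in both) had overlapping groups.

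Of the 5 exportins, 4 were above 0 with a median of 0.19, beside 52.7% of all genes. Without vector 1 it was 5 of 5 with a median of 0.08, beside 55.6%. At an unadjusted p under 0.05, 2 of 5 were higher, beside 4.95% of all genes, and 1 of 5 without vector 1, beside 4.91%. Counts over so few genes are a description. Xpo1 (NCBI Gene 101829698), also called CRM1, exports proteins with leucine-rich export signals and is the target of the drug leptomycin B. It measured 38.1, 52.8 and 52.9 FPKM in vector 1 to 3 and 62.8, 56.3 and 64.1 FPKM in STYK1 1 to 3. All STYK1 libraries were above all vector libraries, the lowest at 1.06 times the highest vector library. The means were 47.9 ± 8.52 and 61.1 ± 4.18 FPKM (SD, n = 3 each), 1.27-fold apart. The difference was 0.36 ± 0.14 (SE; 95% interval 0.04 to 0.67; limma, unadjusted p = 0.0301, adjusted p = 0.469), and 0.20 without vector 1 (unadjusted p = 0.0218). Xpo4 (NCBI Gene 101840015), which exports a translation factor and SMAD3, was low, at 2.83, 4.13 and 4.32 against 5.67, 4.40 and 5.83 FPKM. Vector 1 was lowest and STYK1 2 lay just above vector 3, and the difference of 0.41 ± 0.17 (SE; unadjusted p = 0.0430, adjusted p = 0.469) was 0.26 without vector 1. Xpo7 did not overlap (0.19, and 0.08 without vector 1). Xpo5, the exporter of microRNA precursors, was at 0.10 (0.04 without vector 1), and Xpo6, the exporter of actin, at -0.0044 (0.0067 without vector 1) with a 95% interval of -0.19 to 0.18.

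The Ran cycle genes stood near 0. Ran was the most abundant of the 48, at 171, 193 and 214 FPKM in vector against 186, 197 and 218 FPKM in STYK1 libraries, with overlapping groups (0.06 ± 0.11 (SE), adjusted p = 0.80, and -0.03 without vector 1). Rangap1 measured 18.35, 17.9 and 19.99 against 18.02, 16.5 and 19.3 FPKM (-0.06, 95% interval -0.29 to 0.17, and -0.08 without vector 1). Rcc1 measured 16.3, 15.9 and 12.6 against 13.0, 14.6 and 13.1 FPKM (-0.12, 95% interval -0.40 to 0.16, and -0.06 without vector 1). The median of the 3 was -0.06 with and without vector 1, and 0.04 with the libraries scaled to equal FPKM sums.

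Levels of the roles by library are set beside a list of 15 proliferation genes such as Mki67, Top2a and Ccnb1. Relative to the mean of the vector libraries, the 48 genes averaged -0.14, 0.06 and 0.07 in vector 1 to 3 and 0.15, 0.12 and 0.14 in STYK1 1 to 3, in log2 units. Importin alpha genes averaged -0.32, 0.14 and 0.18 against 0.28, 0.16 and 0.21, and nuclear basket genes -0.19, 0.06 and 0.13 against 0.23, 0.25 and 0.24. Vector 1 was the low library of each. The 48 genes together were on average higher in every STYK1 library than in every vector library, as were the basket, Y complex, inner ring, central channel, importin beta and exportin genes. So were all 11464 genes tested, at -0.0006, 0.0009 and -0.0004 in vector against 0.0059, 0.0421 and 0.0046 in STYK1 libraries. The proliferation list averaged -0.47, 0.17 and 0.30 against 0.37, -0.06 and 0.41, so that vector 1 and STYK1 2 were its low libraries, as for Kpna2. Its summed level was 335 to 573 FPKM in vector and 430 to 611 FPKM in STYK1 libraries, its median difference was 0.30 with 14 of 15 above 0, and 0.01 without vector 1. Its part in the differences of the pore and transport genes was not tested. In these bulk libraries, fewer cells of a kind and less RNA per cell cannot be told apart.

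**Figure D3:**
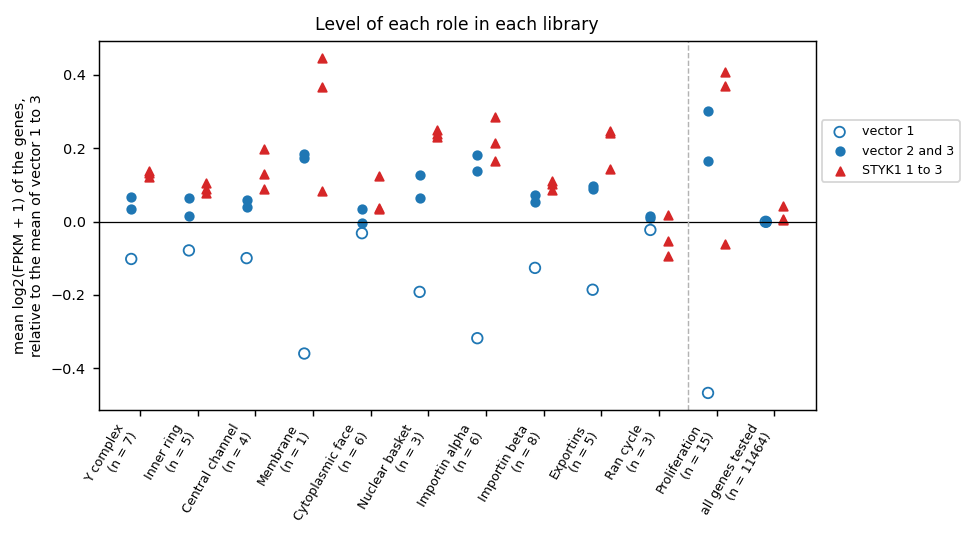
Mean log2(FPKM + 1) of the genes of each role in each library, relative to the mean of the 3 vector libraries, with the proliferation list and all tested genes for comparison. Vector 1 (open circles) is the lowest library in every role except the Ran cycle.

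A gene's share in the summed FPKM of its role is a ratio within a library, so scaling between libraries does not touch it. Of 47 such shares in 9 roles, 5 were higher and 3 lower in all 3 STYK1 libraries than in all vector libraries. These counts are a description, since such shares were not computed for other genes. Ranbp2 made up 8.82%, 13.3% and 12.5% of the cytoplasmic face in vector 1 to 3 and 15.5%, 15.6% and 14.6% in STYK1 1 to 3. In the same libraries Rae1 made up 49.99%, 45.4% and 47.9% and then 41.4%, 45.2% and 43.3%, so its share was lower in every STYK1 library, by little between vector 2 and STYK1 2. Among the exportins, Xpo1 held 30.8%, 35.9% and 35.9% against 39.0%, 36.7% and 39.5%, while Xpo6 held 28.4%, 22.9% and 23.6% against 21.2%, 21.7% and 22.1%. Nup98, Nup160 and Nup214 were the other genes with a higher share, and Ipo4 the other with a lower one. Kpna2 held 43.6% to 53.7% of importin alpha, with overlapping groups, and Tpr 52.6% to 54.96% of the basket. The shares of a role sum to the whole, so they are not independent of each other.

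**Figure D4:**
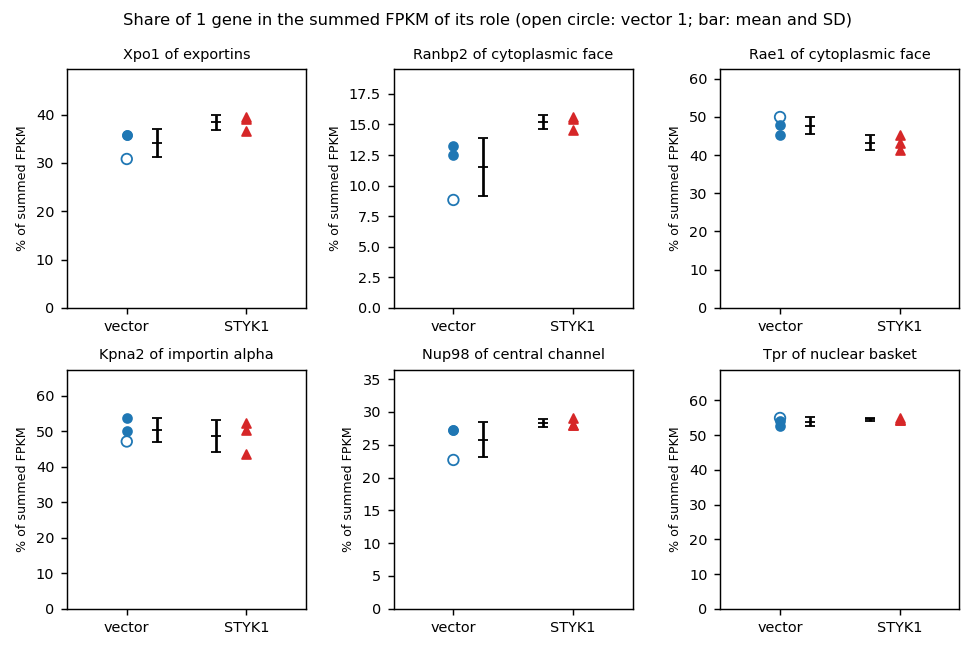
Share of 1 gene in the summed FPKM of its role in each library, in percent, with the mean and SD of each group (n = 3). Ranbp2, Xpo1 and Nup98 have higher shares and Rae1 a lower share in every STYK1 library, while Kpna2 and Tpr overlap.

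Other genes of nuclear transport, from lists outside the rule, were taken for comparison. None passed the test (limma, 0 of 41 tested at an adjusted p under 0.05). Of 16 further pore and karyopherin genes tested, 10 were above 0 (median 0.09, and 0.02 without vector 1), with 1 higher and 2 lower at an unadjusted p under 0.05. Of 14 mRNA export genes, 4 were above 0 (median -0.04), with 0 in either direction, and without vector 1 6 were above 0 (median -0.0065). Thoc5 of that list did not reach 1 FPKM as the mean of a group and was not tested. It measured 0, 0 and 0 FPKM in vector against 0.45, 0.58 and 1.27 FPKM in STYK1 libraries. Of 11 lamina and envelope genes, 9 were above 0 (median 0.11), with 1 higher and 0 lower, and without vector 1 8 were above 0 (median 0.07), with 2 higher. Of all genes tested, 52.7% were above 0, with 4.95% higher and 4.88% lower at that p. Without vector 1 these shares were 55.6%, 4.91% and 4.57%. The smallest p belonged to Lemd3, an inner nuclear membrane protein that binds SMADs, at 8.20, 11.1 and 11.2 against 14.2, 15.2 and 13.5 FPKM (0.46 ± 0.14 (SE), unadjusted p = 0.00921, and 0.32 without vector 1). Ranbp6, a relative of Ipo5, measured 9.87, 10.2 and 10.8 against 12.4, 13.9 and 12.4 FPKM (0.30 ± 0.10 (SE), unadjusted p = 0.0194, and 0.27 without vector 1). Tor1a, an ATPase of the nuclear envelope, was lower, at 52.1, 52.6 and 53.5 against 41.3, 45.2 and 47.7 FPKM (-0.23 ± 0.09 (SE), unadjusted p = 0.0247, and -0.24 without vector 1). For these 3 the groups did not overlap, which their choice by small p made likely, and the adjusted p was 0.469 for each. Without overlap were 4 higher and 2 lower of the 16 pore and karyopherin genes. Among the 14 mRNA export genes it was 1 and 2, and among the 11 lamina and envelope genes 2 and 0. Of all genes, 13.6% were higher and 9.44% lower without overlap.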

How the data were processed

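RNA sequencing of 6 BHK21 libraries was used, 3 per group. Groups follow the treatment named in each sample's labels. RNA was extracted with Trizol, and the Illumina TruSeq kit was used, per the labels' protocols. The authors deposited FPKM values, 1 per gene and library, per the file headers. The submitters' processing notes name Bowtie 0.12.2, mm8 and mm9 without saying what each was used for. The program behind the FPKM, the use of strand and the treatment of shared reads are not stated.

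Of 16078 gene IDs, 15049 matched RefSeq's table for the hamster assembly BCM_Maur_2.0, used for names alone. The 11464 genes reaching 1 FPKM as the mean of a group were tested with limma-trend on log2(FPKM + 1) (limma 3.58.1, R 4.3.3, robust empirical Bayes, two-sided, Benjamini-Hochberg adjustment over all of them, threshold 0.05). Fold changes on that scale understate those of low genes, and a fold is the ratio of 2 group means in FPKM. The code was tested on simulated data. Members and lists were chosen with earlier results of these data known. In each role, values in each library were set out for the gene with the highest mean and the 2 with the smallest p, and for every gene of roles with at most 4. Nup188, Kpnb1 and Ipo13 were added after their values were seen, as were the genes given by difference alone. From the other lists, the 3 genes with the smallest p were taken. Thoc5, which was not tested and has no p, was set out beside them, outside this rule and with its values known. No sequence is shown and features of length or sequence were not analysed here.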

Additional observations from a re-analysis of the deposited data

How the results depend on the processing

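Under 15 alternative settings and 1 chosen after seeing the data (quality weights, where vector 1 had a weight of 0.129), none of the 48 genes passed, and the adjusted p of the 26 tested genes set out by the rule lay between 0.103 and 0.999 over all of them. Over all genes, quality weights called 24 and leaving out 1 library called 0 to 2 (2 without vector 3, STYK1 1 or STYK1 3), against 0. The median difference of the pore and transport genes was 0.15; it was 0.26 after scaling to equal FPKM sums, where the median over all genes was 0.12 in place of 0.01, and 0.0629 to 0.18 with 1 library left out, lowest without vector 1. With equal sums 11 genes were higher at an unadjusted p under 0.05 and 27 were higher without overlap (24.45% of all genes), against 6 and 16 (13.6%); that scaling split all genes at that p into 1269 higher and 216 lower, median centring into 402 and 762, against 568 and 560. Median centring gave 3 higher at that p and 1 gene, Rae1, lower without overlap (12.5% of all genes). Quality weights gave 9 higher and 0 lower at that p, with a median difference of 0.084 beside 0.015 over all genes. The share of all genes at that p is not given for the fit with quality weights. Leaving out 1 library gave 0 to 7 higher at that p, 18 to 23 genes higher without overlap (16.6% to 20.6% of all genes) and 0 to 3 lower (11.4% to 17.4%), 0 of them without vector 1 and 3 without STYK1 2. Shares of all genes at that p are given only for the fit without vector 1. Higher without overlap were 11 of 48 with median centring, beside 10.4% of all genes, and 11 with quantile normalization, beside 11.7%. Of the 16 genes without overlap, 10 remained so under all 3 other scalings: Ipo7, Kpna4, Nup160, Nup188, Nup205, Nup54, Nup98, Ranbp2, Tpr and Xpo1. The share of all genes that remained so is not given, so this count is a description. With equal sums the sign of the difference changed for 6 of the 48: Nup62 (0.0735), Rangap1 (0.0428), Aaas, Xpo6, Ipo4 and Nup93. It changed for Nup35 (-0.0010) and Nup37 with median centring, and for Nup42, Xpo6 and Nup37 with quantile normalization. Among the 26 genes set out by the rule, it changed for Ran (-0.0267) and Seh1l (-0.0216) with quality weights. Also among those 26, with 1 library left out, Nup62 lay between -0.1371 and 0.0528 and Kpna2 between -0.0738 and 0.3206. Ran lay between -0.0256 and 0.1348 and Seh1l between -0.0241 and 0.1441. The sign changed without vector 1 for each of them, for Nup62 also without STYK1 1 or 3 and for Ran without STYK1 3. The median of the Ran cycle was 0.04 with equal sums. The cause of these shifts was not tested.

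With the replicate number as a block, 3 genes were higher at an unadjusted p under 0.05 and 0 passed after adjustment. The share of all genes at that unadjusted p is not given for this fit. Whether same-numbered libraries were made together is not stated. The correlations of their deviations from the group means were -0.27, -0.16 and 0.11, which cannot settle it. The absolute depth is unknown, so no counting limit is given.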
